A study of Homo sapiens with 16 samples.

Results

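The 6 Notch pathway genes NOTCH1, NOTCH2, NOTCH3, JAG1, HES1 and HEY1 were followed through a map of N6-methyladenosine (m6A), a mark on messenger RNA, in a human glioma cell line. They were read by the called bases that lie inside each gene's hg38 span on the strand the gene is read from. They held 329 of 452349 called bases, and they are 6 of 13073 genes with a called base given to them.

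The m6A-eCLIP assay crosslinks an m6A antibody to fragments of polyA RNA and reads the bound base from the sequencing. There were 2 libraries of U87-R treated with 50 µM STM2457 for 96 hours, 3 of U87-R with a DMSO control label and 3 of U87 MG (U87) with the same DMSO label. U87 is an established glioma line. U87-R was derived from it and resists temozolomide (TMZ), a drug that alkylates DNA. STM2457 inhibits METTL3, the enzyme that deposits most m6A in messenger RNA. The medium of U87-R held 50 µM TMZ in both of its groups, whereas that of U87 held none, so resistance and the presence of TMZ cannot be told apart. The comparison of STM2457 with its control and that of U87-R with U87 share the 3 control libraries of U87-R. Separate cultures are not named in the labels, so each p-value measures only the spread between these libraries. The 8 input libraries were not analysed here: a score therefore depends on both the mark and the amount of RNA, and less methylation, less RNA per cell and fewer cells expressing the gene cannot be told apart.

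The U87-R libraries with STM2457 held 105900 and 110875 called bases, the U87-R control libraries 192697, 149477 and 170655, and the U87 libraries 150135, 171012 and 182556. The sums of scores over the 7 markers of the U87 line were 3706 to 3760 with STM2457, 9707 to 10408 in U87-R and 9162 to 9753 in U87, and all 7 genes had called bases. TNC made up the largest part of the sum. FN1 went against it, with 331 and 234 with STM2457, against 70.2, 35.7 and 38.4 in U87-R, and it was listed at 0 in 2 of the 3 U87 libraries. Of 18 markers of other cell types, 8 had a called base, and their summed scores were 276 to 318 with STM2457, 346 to 671 in U87-R and 481 to 714 in U87. CD68, KDR and OLIG2 carried most of these sums, while SYT1 was higher with STM2457, at 34.8 and 34.1, against 0, 9.23 and 0 in U87-R. Defining markers such as PTPRC, CD14, AIF1, VWF, CDH5, MOG, SNAP25, EPCAM and CDH1 were listed at 0 in every library, and the part of other cells in the results was not tested. The U87-R and U87 libraries numbered 2 stood apart from the other untreated libraries, and results that turn on them are given with and without both.

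Notch receptors are membrane proteins that ligands on a neighbouring cell activate. Cleavage then frees the receptor's intracellular part, which enters the nucleus and joins RBPJ to switch on targets such as the HES and HEY repressors. In glioma the pathway is known for its part in keeping cells stem-like. METTL3 works in a complex with METTL14 and prefers adenosines in the motif DRACH, often near stop codons and in long exons. Antibodies to m6A also bind m6Am, a related mark on the first transcribed adenosine that another enzyme deposits.

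The sequences around the annotated starts of 4 members are shown because NOTCH1 kept its calls there with STM2457 while those of its body fell. Each is 30 bases from RefSeq (GRCh38.p14), 10 before the start and 20 from it, on the gene's own strand, with capitals for bases called in at least 2 libraries.
NOTCH1 (chr9:136546029-136546058, minus strand): tctgagcctcACTAgtgcctcggccgcggg
NOTCH3 (chr19:15200976-15201005, minus strand): ggccgcctcaCttcggcgaagttggcggcg
JAG1 (chr20:10673980-10674009, minus strand): cgctgctgccAgacgggctctccgggtcct
HES1 (chr3:194136138-194136167, plus strand): cctagggatcAcacaggatccggagctggt
The first transcribed base was called in each of these 4 genes, and it is an A in NOTCH1, JAG1 and HES1 and a C in NOTCH3. None of the capital letters is the A of a DRACH motif, where D is A, G or T, R is A or G and H is A, C or T, read on the gene's strand only. Over all genes of the promoter table, 2973 had a call on the first base, and 94.1% of those bases were an A, against 44.3% of all first bases. Of 23443 bases called in the first 50 nt of 5702 genes, 48.5% were an A. Of the 23112 of these whose neighbouring letters were all in the sequence table, 1.55% were the A of a DRACH motif. A match to a motif is a description of letters and not of a site.

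With STM2457 the scores of all 3 receptors, of the ligand JAG1 and of the target HES1 were lower than in U87-R. HES1 had no called base left, and of the 6 members NOTCH2 kept the largest share of its mean sum. In the limma test with Benjamini-Hochberg adjustment over 10506 genes, 5 of the 6 members were called lower at an adjusted p under 0.05 and 0 were called higher, where 37.9% of all tested genes were called lower and 6.28% higher. The median change of the 6 members was -2.13 on the log2(sum of scores + 1) scale, and that of all tested genes was -0.68. Centring each library on its median moved the all-gene median to -0.12 and the calls to 2548 lower and 1606 higher genes, against 3980 lower and 660 higher without scaling. Scaling to library totals gave 2473 lower and 1687 higher genes. All 5 member calls held under both. That of HES1 rests on an assumed 0 in both treated libraries.

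**Figure D1:**
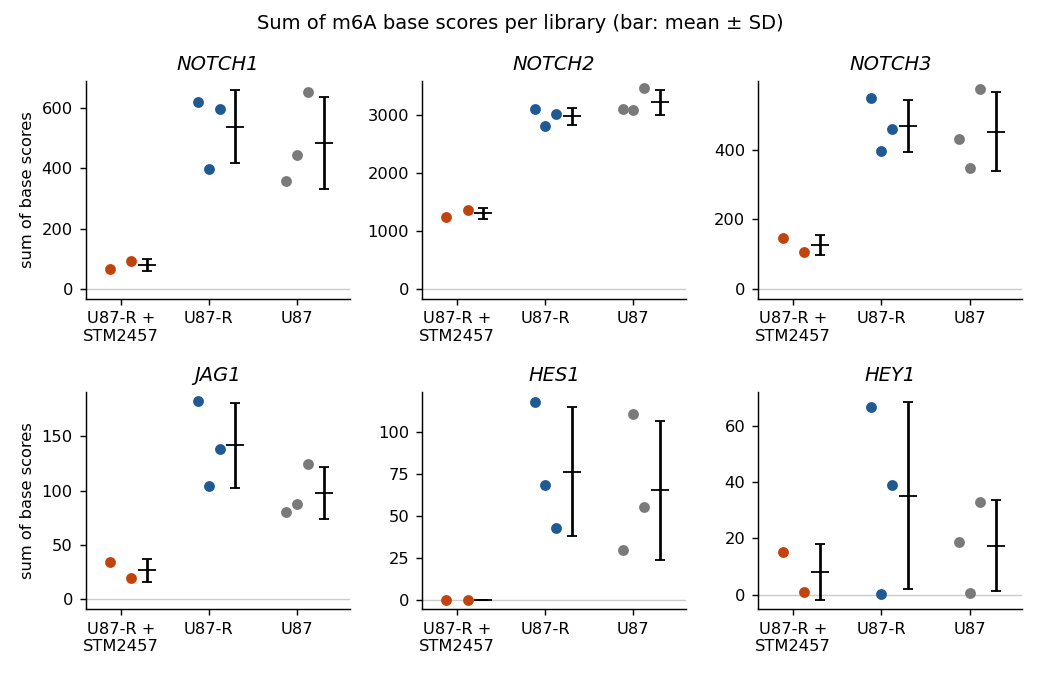
Sum of m6A base scores of each member (vertical axis, no unit) in each library, grouped as U87-R with STM2457 (n = 2), U87-R (n = 3) and U87 (n = 3). Points are libraries and bars are the mean ± SD. Both STM2457 points lie below every U87-R point for NOTCH1, NOTCH2, NOTCH3, JAG1 and HES1, and the groups overlap for HEY1.

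NOTCH2, a receptor, spans chr1:119911553-120069662 on the minus strand and had 143 called bases, the most of the 6 members. Its sum of scores was 1236 and 1368 with STM2457, against 3107, 2822 and 3030 in U87-R and 3115, 3095 and 3481 in U87. Both treated libraries lay below all 6 untreated ones, and the U87-R and U87 libraries were close. The change with STM2457 was -1.20 ± 0.11 (SE) on the log2(sum + 1) scale (limma, adjusted p = 0.000134). After centring it was -0.64 (limma, adjusted p = 0.0104). NOTCH2 had 36 and 40 called bases with STM2457, 64, 67 and 73 in U87-R and 71, 90 and 91 in U87.

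The bases of NOTCH2 did not all fall. Of its 83 tested bases, those called in 2 or more libraries of any group, 30 were lower with STM2457 and 1 was higher in the limma test per base, where 16.9% of all 188742 tested bases were lower and 6.65% higher. Among all 6 members 54 of 165 tested bases (32.7%) were lower and 1 was higher, and 34 of the 54 were not listed in either STM2457 library. Those 34 were tested only through the untreated groups that list them and are set against an assumed 0, so their number is a description.

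Most of the NOTCH2 score came from a cluster 2927 to 4409 nt from its annotated 3′ end. Exons and untranslated regions were not assigned here. The cluster's sum of scores was 1004 and 1162 with STM2457, against 2073, 1858 and 2126 in U87-R and 2082, 2034 and 2058 in U87. Within it the base at 119915353 scored 106, 113 and 109 in U87-R and 112, 94.5 and 103 in U87, and it was not listed in either library with STM2457 (limma, adjusted p = 4.93e-06). All 6 untreated libraries thus listed it at a score over 90, and neither treated one listed it.

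Other bases of the cluster kept most of their score. The base at 119915269, 84 nt away, scored 136 and 141 with STM2457, against 151, 156 and 157 in U87-R (change -0.16 ± 0.08, SE, on the log2(score + 1) scale; limma, adjusted p = 0.187). Its neighbour at 119915270 scored 123 and 128 with STM2457 and 151, 148 and 149 in U87-R (limma, adjusted p = 0.0504). At both positions the treated libraries lay below every U87-R library, and neither passed the threshold in this fit, though 119915270 passed without U87 library 1 or 2 (limma, adjusted p = 0.0246 and 0.0464). The base at 119914973 scored 163 and 168 with STM2457, against 132, 153 and 136 in U87-R (limma, adjusted p = 0.0881), so the treated libraries were the higher ones there. Without U87-R library 2 it passed (limma, adjusted p = 0.0291).

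The base at 119915407, chosen after its values were seen, lies 54 nt from 119915353 and scored 49.2 and 51.6 with STM2457, against 84.1, 82.6 and 84.8 in U87-R. Its change was -0.72 ± 0.11 (SE) on the log2(score + 1) scale (limma, adjusted p = 0.00280). Within 54 nt, then, 1 base was no longer listed and another was still called at a lower score. The base at 119915418, 11 nt beyond, scored 80.2, 31.8 and 43.5 in U87-R and 84.3, 72.9 and 77.1 in U87 and was not listed with STM2457 (limma, adjusted p = 0.000109).

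**Figure D2:**
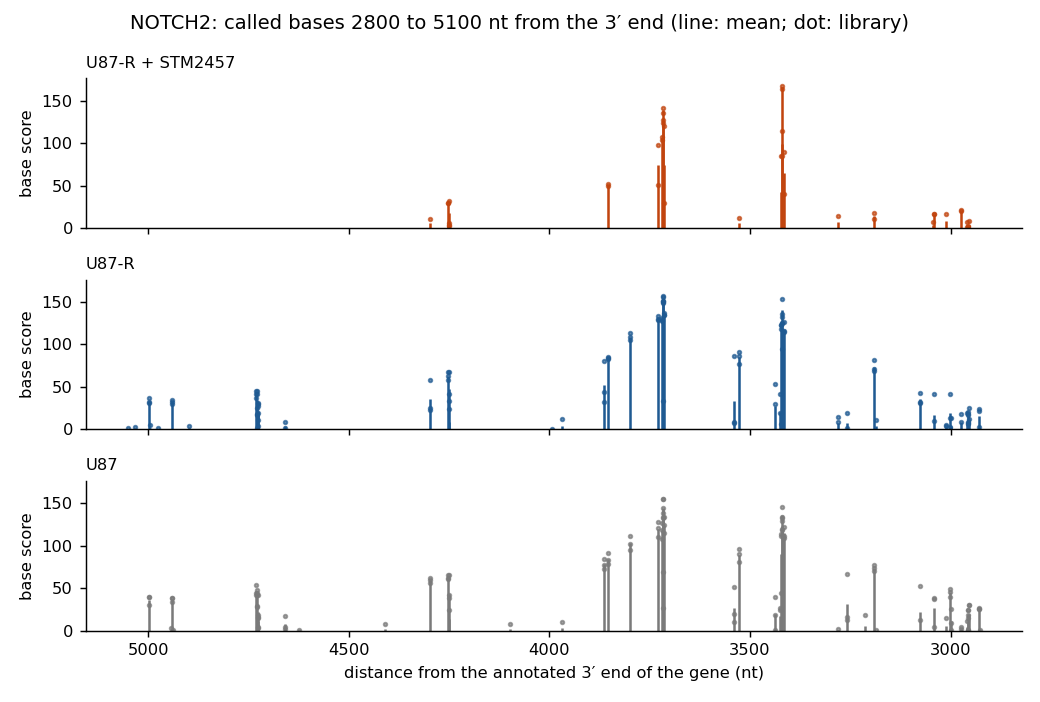
Base scores of NOTCH2 (vertical axis, no unit) against distance from the annotated 3′ end in nt (horizontal axis), for U87-R with STM2457 (top), U87-R (middle) and U87 (bottom). Dots are libraries and lines are means with unlisted libraries at 0. The bases at 3716 and 3717 nt stay above 120 with STM2457, the base at 3800 nt is missing there, and the cluster from 4623 to 5050 nt is empty.

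Other NOTCH2 clusters were lost as a whole. The cluster 4623 to 5050 nt from the 3′ end summed to 230, 169 and 221 in U87-R and 206, 221 and 257 in U87. It had no called base with STM2457. Of its 8 tested bases 6 were called lower, beside 16.9% of all tested bases. All 8 were tested only through the untreated groups and set against an assumed 0, so this count is a description. The cluster's base at 119916283 scored 41.7, 37.0 and 45.5 in U87-R (limma, adjusted p = 5.42e-05, against the same assumed 0). The cluster 7914 to 7980 nt from the 3′ end, with 56.6 ± 12.9 in U87-R and 79.8 ± 5.67 in U87 (SD, n = 3 each), was also not listed with STM2457.

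The next clusters upstream were lower but still present. That at 12166 to 12400 nt from the 3′ end summed to 65.9 ± 23.2 with STM2457 (SD, n = 2), against 332 ± 43.1 in U87-R and 392 ± 67.8 in U87 (SD, n = 3 each). It holds the 1 member base called higher, 119923863, with 6.48 and 2.84 in the STM2457 libraries and no listing elsewhere (limma, adjusted p = 0.00407). It was tested only because the STM2457 libraries list it, so this call is no support for a rise. The cluster at 13902 to 14267 nt averaged 80.9 ± 22.4 with STM2457 and 322 ± 41.0 in U87-R. A small cluster at 17476 to 17487 nt was called only in U87, with sums of 15.8, 0 and 34.6, and was empty in U87-R with and without STM2457. At the other end, 53 to 267 nt from the start, the sum was 86.1 and 58.0 with STM2457, against 0.0322, 30.0 and 63.7 in U87-R and 43.7, 116 and 127 in U87. These groups overlap, and none of the 14 tested bases there was called. NOTCH2NLA, NOTCH2NLB and other near-identical copies share sequence with the start of NOTCH2, so the placing of these calls is uncertain.

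NOTCH1, the second receptor, spans chr9:136494433-136546048 on the minus strand and had 89 called bases. The sum of its scores was 66.3 and 92.8 with STM2457, against 621, 399 and 596 in U87-R and 357, 444 and 654 in U87. The treated libraries lay far below every untreated library, and those of U87-R and U87 overlapped. The change with STM2457 was -2.74 ± 0.30 (SE) on the log2(sum + 1) scale (limma, adjusted p = 0.000233), and it was -2.18 after centring. The libraries held 9 and 9 called bases of NOTCH1 with STM2457, 38, 36 and 42 in U87-R and 44, 40 and 43 in U87.

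What was left of NOTCH1 sat largely at its start. Bases within 50 nt of the 5′ end summed to 40.5 and 66.4 with STM2457, against 42.4, 25.8 and 46.8 in U87-R and 18.3, 65.0 and 66.6 in U87, and these groups overlap. Bases 50 nt or farther summed to 25.7 and 26.4 with STM2457, against 578, 373 and 549 in U87-R and 338, 379 and 587 in U87. The start thus held 67.2% of the mean sum with STM2457, 7.12% in U87-R and 10.3% in U87. Without the bases at the start, the change of NOTCH1 was -4.18 on the log2(sum + 1) scale (limma, adjusted p = 3.33e-05), and the all-gene median was -1.14. Kept starts were common in the series. Of 3979 bases of other genes that lie within 50 nt of a start and scored at least 10 in all 3 U87-R libraries, 92.9% still scored at least 10 in both STM2457 libraries and 1.03% were not listed in either.

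**Figure D3:**
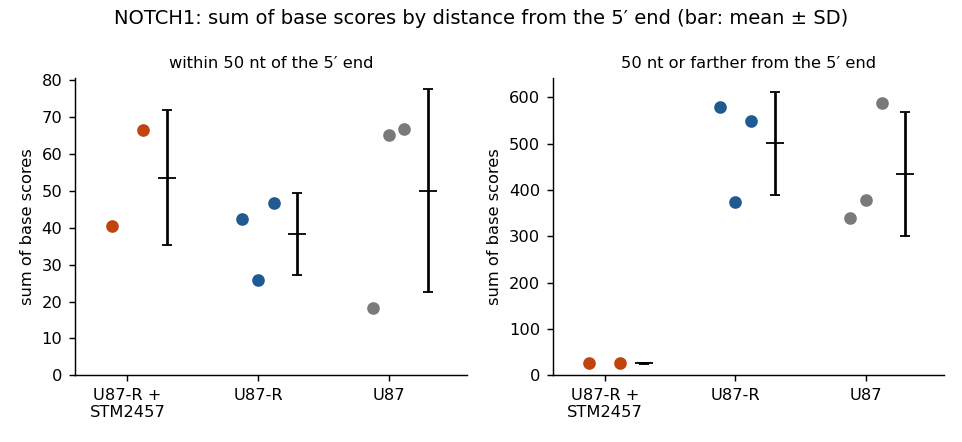
Sum of base scores of NOTCH1 (vertical axis, no unit) within 50 nt of the annotated 5′ end (left) and 50 nt or farther from it (right) in each library of U87-R with STM2457 (n = 2), U87-R and U87 (n = 3 each). Points are libraries and bars are the mean ± SD. The groups overlap at the start, and the STM2457 libraries, at 25.7 and 26.4, lie below all others in the rest of the gene.

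The first transcribed base of NOTCH1, at 136546048 and the first capital of its printed sequence, scored 15.6 and 34.8 with STM2457, against 13.4, 10.2 and 19.9 in U87-R and 10.8, 30.4 and 34.4 in U87 (limma, adjusted p = 0.436 for STM2457 against U87-R). The base 2 nt further in, at 136546046, scored 17.4 and 14.2 with STM2457 and 21.8, 15.6 and 19.4 in U87-R (limma, adjusted p = 0.818). At neither base were the groups separated. The first base was the 1 NOTCH1 site on the authors' deposited site list for STM2457, which gave it a combined score of 23.3.

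The main cluster in the body of NOTCH1 was lower. The cluster 2119 to 3093 nt from the 3′ end summed to 20.9 and 22.6 with STM2457, against 367, 249 and 351 in U87-R and 213, 238 and 373 in U87. Of its 24 tested bases 9 were called lower, beside 16.9% of all tested bases. Some of the 9, such as 136496573 and 136497460, were not listed with STM2457 and were set against an assumed 0, so this count is a description. Its highest base in U87-R, 136497164, scored 7.91 and 12.3 with STM2457 and 58.1, 46.9 and 51.3 in U87-R, a change of -2.28 ± 0.30 (SE) on the log2(score + 1) scale (limma, adjusted p = 0.00137). The base at 136497137 scored 5.57 and 9.88 with STM2457 and 30.8, 35.7 and 26.8 in U87-R (limma, adjusted p = 0.00650). Both bases were still called in both STM2457 libraries, at scores below every untreated library, but neither was on the authors' site list for STM2457.

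The base at 136496573 scored 38.5, 38.6 and 48.0 in U87-R and was not listed with STM2457 (limma, adjusted p = 0.000234). A cluster 10565 to 10618 nt from the 3′ end was not listed with STM2457 either. In U87-R its base at 136505012 scored 24.4, 28.3 and 27.0 (limma, adjusted p = 0.000664), and its base at 136505050 scored 9.10, 28.3 and 27.0 (limma, adjusted p = 0.00484). In all, 14 of 40 tested NOTCH1 bases (35.0%) were lower with STM2457, beside 16.9% of all tested bases. Of the 14, 10 were not listed with STM2457. Those 10 were tested only through the untreated groups and set against an assumed 0.

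NOTCH3, the remaining receptor of the set, spans chr19:15159038-15200995 on the minus strand and had 44 called bases. The sum of its scores was 145 and 106 with STM2457, against 548, 398 and 461 in U87-R and 432, 349 and 574 in U87. The treated libraries lay below all untreated ones. The change with STM2457 was -1.90 ± 0.25 (SE) on the log2(sum + 1) scale (limma, adjusted p = 0.000528), and it was -1.34 after centring. The libraries held 10 and 7 called bases with STM2457 and 27, 16 and 15 in U87-R (two-sided exact permutation test, p = 0.2, where 0.1 is the smallest this design allows).

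The cluster 2119 to 2681 nt from the 3′ end of NOTCH3 held most of its score, 91.7 ± 9.02 with STM2457 (SD, n = 2), against 380 ± 44.1 in U87-R and 364 ± 77.6 in U87 (SD, n = 3 each). Its base at 15161311 scored 17.1 and 13.6 with STM2457, against 106, 105 and 94.3 in U87-R, a change of -2.66 ± 0.16 (SE) on the log2(score + 1) scale (limma, adjusted p = 4.64e-05). The base at 15161320, 9 nt away, scored 4.92 in 1 STM2457 library and was not listed in the other, against 91.1, 28.9 and 94.4 in U87-R (limma, adjusted p = 0.00517). Another base, 15161406, stood at 44.6 and 46.0 with STM2457, against 72.2, 72.5 and 71.4 in U87-R and 34.3, 55.5 and 83.5 in U87 (limma, adjusted p = 0.197). Its treated libraries lay below those of U87-R but inside the range of U87.

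The base at 15161583, with 44.3, 40.7 and 34.8 in U87-R, and that at 15165951, with 15.8, 22.6 and 18.9, were not listed with STM2457 (limma, adjusted p = 9.29e-05 and 0.000689). The base at 15165951 belongs to a cluster 6888 to 6986 nt from the 3′ end that summed to 64.4 ± 10.4 in U87-R and 82.1 ± 33.3 in U87 (SD, n = 3 each) and was empty with STM2457. Together 7 of 21 tested NOTCH3 bases (33.3%) were lower, beside 16.9% of all tested bases. Of the 7, 5 were not listed with STM2457. Those 5 were tested only through the untreated groups and set against an assumed 0, so the share is a description.

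JAG1, a ligand that activates Notch receptors from the neighbouring cell, spans chr20:10637684-10673999 on the minus strand and had 23 called bases. Its sum of scores was 34.4 and 19.6 with STM2457, against 183, 104 and 138 in U87-R and 80.2, 88.0 and 125 in U87. The treated libraries were the lowest, and 2 of the 3 U87-R libraries were above every U87 library. The change with STM2457 was -2.37 ± 0.42 (SE) on the log2(sum + 1) scale (limma, adjusted p = 0.00215), and it was -1.81 after centring. Of the treated sums, 14.8 and 0.0563 came from its first transcribed base, at 10673999. That base scored 8.57 and 4.48 in 2 of the 3 U87-R libraries.

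Nearly all of the other JAG1 score came from 1 cluster, 1758 to 2112 nt from the 3′ end. Its base at 10639544 scored 19.6 and 13.8 with STM2457, against 72.1, 25.8 and 33.8 in U87-R and 27.1, 37.6 and 44.1 in U87 (limma, adjusted p = 0.101). The treated libraries were the lowest, but the U87-R spread was wide and the base did not pass. The bases at 10639566, with 36.8, 27.8 and 30.7 in U87-R, and at 10639670, with 21.3, 28.0 and 17.4, were not listed with STM2457 (limma, adjusted p = 0.00115 and 0.00377). They lie 22 and 126 nt from the base that stayed.

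HES1, a repressor and a direct Notch target, spans chr3:194136148-194138732 on the plus strand and had 15 called bases. No base of it was called in either STM2457 library, so its sum was listed at 0 there. The sum was 118, 68.6 and 42.4 in U87-R and 29.6, 111 and 54.9 in U87 (limma, adjusted p = 0.000374 for STM2457 against U87-R). HES1 was tested only through the untreated libraries that list it, and that p-value rests on the assumed 0. On the same sums the two-sided exact permutation test gave p = 0.2, where 0.1 is the smallest this design allows. Every untreated library had called bases, 8, 7 and 4 of them in U87-R and 3, 10 and 7 in U87. The base at 194138290, 442 nt from the 3′ end, carried most of the score, with 63.7, 48.1 and 26.5 in U87-R and 25.9, 49.6 and 31.5 in U87 (limma, adjusted p = 0.000276 for STM2457 against U87-R). The first transcribed base, at 194136148, scored 2.99, 7.84 and 3.32 in U87-R and 0.943, 16.6 and 1.64 in U87 and was not listed with STM2457 (limma, adjusted p = 0.171). Unlike that of NOTCH1, the start of HES1 was thus not called with the drug, though its scores without it were low and the difference did not pass.

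HEY1, another repressor and Notch target, spans chr8:79764010-79767767 on the minus strand and had 15 called bases. Its sum of scores was 15.2 and 1.04 with STM2457, against 66.6, 0.224 and 38.9 in U87-R and 18.9, 0.521 and 33.0 in U87. The groups overlap, and the U87-R and U87 libraries numbered 2 were near 0. The change with STM2457 was -1.37 ± 1.95 (SE) on the log2(sum + 1) scale (limma, adjusted p = 0.595). Leaving out both libraries numbered 2, a choice made after seeing the data, gave -3.18 (limma, adjusted p = 0.0477), and leaving out STM2457 library 2 gave 0.12 (limma, adjusted p = 0.981). None of the 4 tested bases of HEY1 was called in either direction.

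**Figure D4:**
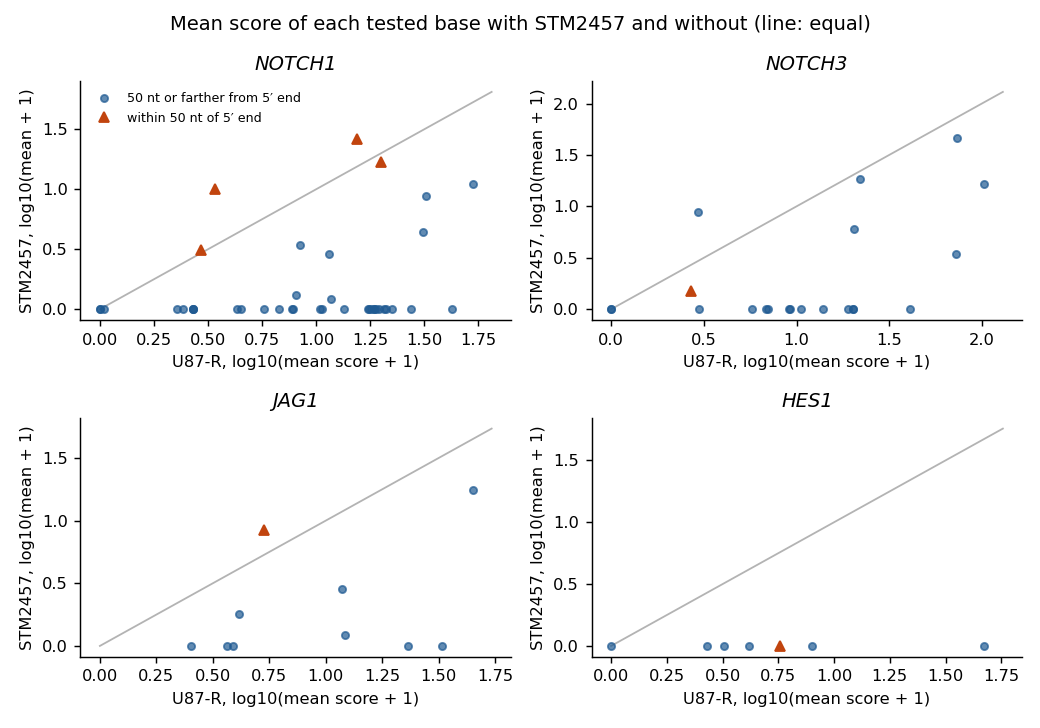
Mean score of each tested base of NOTCH1, NOTCH3, JAG1 and HES1 with STM2457 (vertical axis) against U87-R (horizontal axis), both as log10(mean score + 1). Circles lie 50 nt or farther from the 5′ end, triangles within 50 nt, and the grey line marks equal scores. The NOTCH1 triangles lie near or above the line, most circles lie below it, and the HES1 points lie on the bottom axis.

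Members were also read against each other within a library, which removes a factor shared by all scores of that library. The NOTCH1 sum was 5.36% and 6.79% of the NOTCH2 sum with STM2457, against 19.97%, 14.1% and 19.7% in U87-R and 11.5%, 14.4% and 18.8% in U87. The NOTCH3 sum was 11.7% and 7.73% of that of NOTCH2 with STM2457, against 17.6%, 14.1% and 15.2% in U87-R. In U87 it was 13.9%, 11.3% and 16.5%. The JAG1 sum was 2.78% and 1.43% with STM2457, against 5.89%, 3.69% and 4.56% in U87-R and 2.58%, 2.84% and 3.59% in U87. For both NOTCH3 and JAG1 the higher treated library lay inside the range of U87. In all 3 ratios both treated libraries lay below every U87-R library, and the two-sided exact permutation test gave p = 0.1, the smallest that 2 against 3 libraries allow.

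Bases with a score of 10 or more in every U87-R library were also followed. They were chosen by high scores in U87-R, so lower scores with STM2457 follow in part from the choice, for members and other bases alike. The 6 members had 56 such bases, of which 24 (42.9%) were not listed in either STM2457 library, and 20 (35.7%) still scored at least 10 in both. Among the 46430 other bases of this kind in the series 26.6% were not listed and 46.5% were kept. Counting only bases 50 nt or farther from a start, 44.4% of the members' bases were not listed and 33.3% were kept, against 30.4% and 40.0% of the other bases given to a gene. NOTCH2 had 34 of the 56, with 12 not listed and 14 kept. NOTCH1 had 10, with 5 not listed and 2 kept, and NOTCH3 had 8, with 4 and 3. These shares are descriptions without a test, since bases of a gene share their RNA.

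The authors' deposited lists of reproducible sites and peaks, which join the libraries of a group and have no replicate error, were read beside these values. The overlap over all sites and peaks of the lists was not computed. The counts below therefore describe the members and do not set them apart from other genes. The site list held 7 member sites for STM2457, 25 for U87-R and 30 for U87. All 7 STM2457 sites were on the U87-R list. They were 4 in NOTCH2 and 1 each in NOTCH1, NOTCH3 and JAG1. Each was listed with all libraries of the group. HES1 had 1 site in U87-R and U87, at 194138290, and none with STM2457. The peak list held 32 member peaks for STM2457, 112 for U87-R and 110 for U87. Of the 32 STM2457 peaks 31 overlapped a U87-R peak by at least 1 base, and 71 of the 112 U87-R peaks overlapped an STM2457 peak. NOTCH1 had 1 peak with STM2457, against 18 in U87-R. Peaks are often adjacent tiles, so their number also depends on how a region was split. The bases they cover numbered 1715 with STM2457, against 3635 in U87-R, over all members. In JAG1 they numbered 334 in 2 peaks with STM2457, against 425 in 13 peaks in U87-R, and in NOTCH3 298 in 6 peaks with STM2457, against 337 in 16 peaks in U87-R.

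Between U87-R and U87 the difference of no Notch member passed the test. In the limma test 0 of the 6 members were called, where 0.895% of all tested genes were called higher in U87-R and 0.371% lower. The changes of the sums, U87-R minus U87 on the log2(sum + 1) scale, were 0.17 ± 0.27 for NOTCH1, -0.11 ± 0.10 for NOTCH2, 0.07 ± 0.23 for NOTCH3, 0.52 ± 0.38 for JAG1, 0.30 ± 0.68 for HES1 and 0.56 ± 1.75 for HEY1 (SE). Adjusted p-values in limma ran from 0.640 for JAG1 to 0.950 for NOTCH3, and the median of all genes was 0.12. The direction for NOTCH3 turned under both scalings and by the number of called bases, and that for NOTCH1 by the number of called bases. A p above the threshold does not show that U87-R and U87 carry the same marks.

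At single bases of the members, 0 of 165 were called between U87-R and U87 in either direction, where 0.00053% of all tested bases were called higher and 0% lower by limma. Without adjustment, 10 of the 165 had a p under 0.05, as had 20706 of all 188742 bases. Leaving out U87-R library 2 gave 1 member base called lower, where the count over all bases went to 3977, against 1 with all libraries. Over all genes 133 sums were called between U87-R and U87, 94 higher and 39 lower, and 1317 had an unadjusted p under 0.05. The replicate block gave 68, with 52 higher and 16 lower, and centring gave 107 higher and 73 lower. Without U87 library 1 the count was 75, without U87-R library 1 it was 57 and without U87-R library 3 it was 61. No member was among the calls in any of these fits.

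On the authors' deposited site lists, 24 of the 25 U87-R sites in the members were also among the 30 of U87. Of the 112 U87-R peaks 109 overlapped a U87 peak. The overlap of these groups over all listed sites and peaks was not computed either. JAG1 had 13 peaks in U87-R and 7 in U87, and all 7 overlapped a U87-R peak.

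The other genes of the pathway came from a list of 64 by role, of which 47 had a called base and 42 were tested. With STM2457, 27 of the 42 were lower and 2 higher, beside 37.9% lower and 6.28% higher over all tested genes. Without the 6 members 22 of 36 were lower and 2 higher, with a median change of -1.05 on the log2(sum + 1) scale, beside -0.68 over all tested genes. By role, lower genes were 3 of 3 receptors, 1 of 2 ligands, 8 of 12 genes that process or glycosylate receptors, 6 of 10 genes of trafficking and turnover, 7 of 9 of the nuclear complex and 2 of 4 targets. Neither of the 2 tested near-identical copies of NOTCH2 was called. Between U87-R and U87, 0 of the 42 were called, beside 0.895% higher in U87-R and 0.371% lower over all tested genes.

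Among the genes that process receptors, the γ-secretase subunits moved in opposite directions. APH1B had a sum of scores of 0 and 8.52 with STM2457, against 203, 141 and 188 in U87-R (limma, adjusted p = 0.000649). APH1A had 70.7 and 55.6 with STM2457, against 328, 300 and 231 in U87-R, a change of -2.16 ± 0.23 (SE) on the log2(sum + 1) scale (limma, adjusted p = 0.000187). PSENEN, another subunit, had 351 and 351 with STM2457, against 186, 172 and 135 in U87-R, a change of 1.10 ± 0.25 (SE; limma, adjusted p = 0.00772). The call for PSENEN ended without STM2457 library 1 (limma, adjusted p = 0.0513) and when called bases were counted (limma, adjusted p = 0.259). RFNG, a glycosyltransferase that modifies receptors, had 3.02 and 0 with STM2457, against 85.4, 84.6 and 108 in U87-R (limma, adjusted p = 0.000596).

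The ubiquitin ligases MIB1 and MIB2, which act on Notch ligands in the sending cell, and DTX2, a ligase of the Deltex family, were lower. MIB1 averaged 31.0 ± 16.4 with STM2457 (SD, n = 2) and 160 ± 9.18 in U87-R (SD, n = 3). MIB2 averaged 11.3 ± 3.60 with STM2457 and 74.4 ± 15.2 in U87-R, and DTX2 averaged 95.1 ± 19.6 with STM2457 and 431 ± 12.0 in U87-R. All 3 passed in limma (adjusted p = 0.000819, 0.00448 and 0.000211), but MIB1 and MIB2 did not by the number of called bases (limma, adjusted p = 0.0700 and 0.0749).

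RBPJ, the DNA-binding partner of the cleaved receptor, had sums of 309 and 294 with STM2457, against 745, 670 and 694 in U87-R (limma, adjusted p = 0.000160), and it did not pass by the number of called bases (limma, adjusted p = 0.164). SPEN, a corepressor of RBPJ, had 646 and 882 with STM2457, against 2880, 1696 and 2293 in U87-R (limma, adjusted p = 0.000765). CREBBP, a coactivator and acetyltransferase, averaged 167 ± 24.8 with STM2457 (SD, n = 2) and 414 ± 81.1 in U87-R (SD, n = 3; limma, adjusted p = 0.00413), and its call ended without STM2457 library 1 (limma, adjusted p = 0.0562).

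KAT2B, also an acetyltransferase, went the other way, with 35.7 and 46.3 with STM2457, against 4.11, 0 and 8.27 in U87-R (limma, adjusted p = 0.0185). Its call ended without either STM2457 library (limma, adjusted p = 0.0814 and 0.101), and its number of called bases gave -0.19. HES6, a relative of HES1, averaged 116 ± 59.4 with STM2457 and 259 ± 86.8 in U87-R (limma, adjusted p = 0.0358). That call ended under either scaling (limma, adjusted p = 0.165 and 0.208), and without U87 library 1, U87-R library 1 or 3 or STM2457 library 2 (limma, adjusted p = 0.0552, 0.102, 0.0740 and 0.309).

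**Figure D5:**
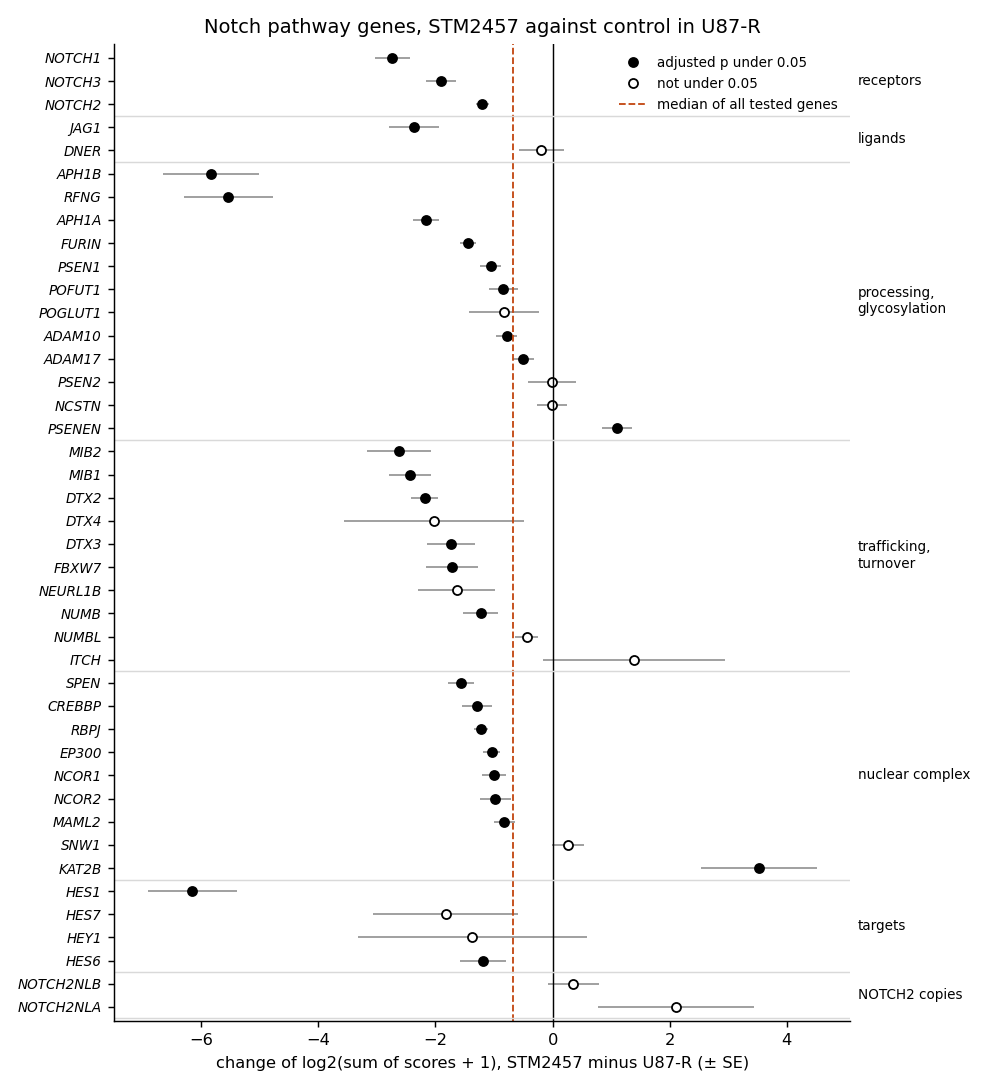
Change of log2(sum of scores + 1) with STM2457 minus U87-R (horizontal axis, log2 units, ± SE) for the 42 tested genes of the pathway list, by role. Filled points have an adjusted p under 0.05, and the dashed line is the median of all tested genes, -0.68. The lowest points, HES1, APH1B and RFNG, are listed at 0 in at least 1 treated library, so their place depends on the added 1. PSENEN and KAT2B are the 2 filled points above zero.

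The genes whose profile over the 8 libraries was most like that of a member were found by the root mean square difference of log2(sum + 1), each centred on its own mean, outside the pathway list. For NOTCH2 these were TMEM132A at 0.0530 and SPRY2 at 0.0604. NT5C3B at 0.152 and METTL25B at 0.155 were nearest to NOTCH1, HECW2 at 0.102 and NOL3 at 0.111 to NOTCH3, and VPS54 at 0.160 and DNAJC10 at 0.175 to JAG1. For HES1 the nearest were SIVA1 at 0.347 and SDSL at 0.380, both also listed at 0 with STM2457. The nearest to HEY1, C11orf54, stood at 0.685, so no gene followed it as closely.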

How the data were processed

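The authors deposited, per eCLIP library, called bases with a position, strand and score, and per group lists of reproducible sites and peaks with the fraction of libraries and a combined score. Reads were handled with UMI-tools, cutadapt and STAR on build hg38, per the submitters' processing notes. Versions, the caller and the formula of the score were not given in the sources used here. Deposited lists hold no read counts, so depth is unknown and no interval for counting error is given.

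Called bases were given to genes by RefSeq spans and strand (GRCh38.p14). Where a protein-coding and a long noncoding RNA gene of the same strand overlapped, the protein-coding gene was taken. By that rule 87.0% of the bases were given to exactly 1 gene. Strands came from the RefSeq promoter table, from textbook knowledge for HEY1, and for genes in neither from at least 80% of at least 5 bases. Per gene and library the scores were summed, and limma 3.58.1 (R 4.3.3) with a trend was fitted to log2(sum + 1) over 10506 genes whose sum reached 10 in 2 or more libraries, with 3 group means over 8 libraries. Single bases were fitted likewise on log2(score + 1), with unlisted bases set to 0. Since log2(value + 1) was used, changes of low values are understated. Both steps were tested on simulated data. Clusters of bases were split where the gap exceeded 200 nt.

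Deviations from the group means correlated between same-numbered U87-R and U87 libraries (r = 0.101, 0.316 and 0.108), each over 0.1, and the numbers were taken to pair them by that rule alone. Differently numbered pairs ran from -0.206 to 0.145, 2 of them at 0.121 and 0.145, so the pairing is weakly marked. For same-numbered STM2457 and U87-R libraries the correlations were -0.0201 and -0.0225, so those were not taken as pairs. The main fits left the pairing out, and it entered only in the replicate block. Genes were named by rule: all members, up to 3 genes per role and direction past the threshold, and the 2 most alike per member. Bases were the 3 highest in U87-R and the 3 largest changes among called ones. The members and lists were chosen with earlier results of these data known. Alternatives were the pseudocount, filter, scaling, block, strand rule, score minimum, number of called bases, starts left out and each library left out.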

Additional observations from a re-analysis of the deposited data

How the results depend on the processing

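All 5 member calls with STM2457 against U87-R held in every alternative and with each library left out. Leave-one-out changes ran from -2.98 to -2.50 for NOTCH1, -1.27 to -1.12 for NOTCH2, -2.13 to -1.67 for NOTCH3 and -2.76 to -1.97 for JAG1. Member bases called lower numbered 37 to 53 with a library left out, 42 with pseudocount 10 and 39 with the replicate block, against 54.

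HEY1 with STM2457 ranged from -3.18 to 0.12 with a library left out, and reached -3.18 (limma, adjusted p = 0.0477) without both untreated libraries numbered 2, a choice made after seeing the data. Member bases called higher went to 3 there, and to 1 to 3 with a library left out. The count of genes called with STM2457 ran from 2988 to 5151, against 4640.

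For U87-R against U87 the gene count was 68 with the replicate block, 71 by the number of called bases, 248 without both libraries numbered 2 and 57 to 190 with a library left out, against 133. The base count was 13 with pseudocount 10, 0 with the other filter, with the replicate block and without both libraries numbered 2, and 0 to 3977 with a library left out, against 1; members called lower were 0 to 1. NOTCH1 turned to -0.13 by the number of called bases. NOTCH3 turned to -0.085 when centred, -0.026 when scaled to totals and -0.0085 by the number of called bases. Leave-one-out ranges were -0.029 to 0.41 for NOTCH1, -0.10 to 0.26 for NOTCH3, -0.15 to 0.78 for HES1 and -0.80 to 2.36 for HEY1. KAT2B with STM2457 turned to -0.19 by the number of called bases. The causes were not tested. The replicate block changed no member's gene call. Leaving out 1 STM2457 library leaves 1, assumed to vary like the other groups. Depth is unknown, so an unlisted base may be below detection.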
